A study of Mus musculus with 108 samples.

Results

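The tail-making and tail-binding machinery described here comprised 9 mouse genes, taken as the rows of the gene count files whose Ensembl identifiers carry these symbols, out of 55573 genes counted. Papola and Papolg encode canonical poly(A) polymerases. Pabpc1, Pabpc1l and Pabpc4 encode cytoplasmic poly(A) binding proteins, Pabpn1 encodes the nuclear one and Pabpn1l encodes a relative of PABPN1 found in oocytes. Cpsf4 and Cstf2 encode RNA-binding subunits of the complexes that cut the pre-mRNA before the tail is added. All 9 passed the filter on low counts in each of the 15 comparisons made.

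The study asked how the loss of EXOSC10, a 3′-to-5′ exoribonuclease of the nuclear RNA exosome, changes the transcriptome of the mouse oocyte as it leaves growth and matures. Each library was made from 1 oocyte, either after capture of poly(A) RNA on oligo-dT beads (polyA libraries, 64) or independently of the tail after removal of ribosomal RNA (RiboMinus libraries, 22). Oocytes were labelled control or Exosc10 oocyte-specific knockout (cKO). The Cre driver, the alleles the controls carried, the strain and the age of the females are not given in the sources used here. GV oocytes are full-grown oocytes with an intact nucleus, the germinal vesicle. GV3h oocytes had been cultured for 3 h outside the body in M2 medium and were sequenced in polyA libraries. MII eggs, arrested at the second meiotic metaphase, were dissected from oviducts.

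The polyA libraries held 7 control and 15 cKO GV oocytes from 2 females per genotype. They held 8 control and 11 cKO GV3h oocytes, and 8 control and 15 cKO MII eggs, from 3 females per group. The RiboMinus libraries held 8 control and 7 cKO GV oocytes from 2 females per genotype, 4 cKO MII eggs from 2 females and 3 control MII eggs from 1 female. In the RiboMinus MII comparison, genotype and female therefore cannot be told apart on the control side. No female supplied oocytes to more than 1 group. Tests used the oocyte as the replicate, so p-values measure the spread between oocytes of which several share a mother. Results with counts summed per female are given beside them, except for the 4 comparisons that use the RiboMinus MII controls (15 calls), which were not fitted that way.

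A poly(A) tail is added in the nucleus once the CPSF complex has recognised the AAUAAA signal and the transcript has been cut. Nuclear poly(A) binding proteins help the polymerase to extend the tail, and cytoplasmic ones then coat it and couple it to translation and to stability. Growing oocytes store mRNAs with short tails, fall silent in transcription when full-grown, and govern translation and decay during maturation largely through tail length. PABPC1L, also called ePAB, is the cytoplasmic binding protein typical of oocytes, where PABPC1 is scarce, and PABPN1L, also called ePABP2, is a relative of PABPN1 typical of oocytes and early embryos.

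The 3′ ends of the transcripts are shown because the tail captured by oligo-dT beads is added there. The hexamer in them is what CPSF, including the product of Cpsf4, recognises. Each sequence is the sense strand of the transcript (GENCODE M21, GRCm38), runs 5′ to 3′ and ends at the last hexamer before the annotated 3′ end. Capitals mark AATAAA or ATTAAA.
Pabpc1: tttggattataaaattcttgctttAATAAA
Pabpc1l: cctgctgatcattttgctttatatATTAAA
Pabpc4: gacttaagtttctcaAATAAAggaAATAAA
Pabpn1: gaggaaagaaggaaaaaaaaaagaATTAAA
Pabpn1l: tgtgttaatagtagaatgtaaattATTAAA
Cstf2: tgattgttgttctgtcgtggattcAATAAA
The hexamer lay 21 bases before the annotated end in Pabpc1, 22 in Pabpc1l, 27 in Pabpc4, 53 in Pabpn1, 20 in Pabpn1l and 17 in Cstf2. The hexamer shown was ATTAAA in Pabpc1l, Pabpn1l and Pabpn1 and AATAAA in Pabpc1, Pabpc4 and Cstf2. In Papola, Papolg and Cpsf4 neither form was in the last 100 bases of the annotated transcript. Thus 6 of 9 held a hexamer, against 78.8% of 19323 genes searched in the same window. The letters TTTTAT or TTTTAAT, the core of the cytoplasmic polyadenylation element, were in the window of 0 of 9 and of 17.9% of all genes. Only the sense strand was searched. A match or its absence describes these letters in this window and no more.

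On GRCm38 the genes lie at chr12:105784694-105838944 (Papola, plus strand), chr11:23862646-23895253 (Papolg, minus), chr15:36595661-36609668 (Pabpc1, minus), chr2:164025450-164050538 (Pabpc1l, plus), chr4:123262351-123298925 (Pabpc4, plus), chr14:54892500-54898169 (Pabpn1, plus), chr8:122619471-122622739 (Pabpn1l, minus), chr5:145167213-145182041 (Cpsf4, plus) and chrX:134059187-134086819 (Cstf2, plus). Of the exon bases of Pabpn1, 21.4% are shared on the same strand with Gm20521, a gene model of 1245 exon bases that joins exons of Bcl2l2 (594 bases) to exons of Pabpn1 (651 bases). Over the 86 libraries the count of Gm20521 was 73 to 102% of that of Pabpn1, with a median of 94.3%, and that of Bcl2l2 had a median of 3.99%. Gm20521 has 0 exon bases outside these 2 genes in this annotation. How the authors' counting assigned reads on shared exons is not given in the sources used here, and the counts of Pabpn1 cannot be told apart from those of Gm20521. Cstf2 shares 4.35% of its exon bases with Nox1 and Papolg 1.66% with Gm12061, both on the opposite strand, and the strand setting of the counting is not given in the sources used here.

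Levels are given in CPM, a gene's reads scaled to the reads assigned in its library with edgeR's TMM factors, which were set separately for polyA and RiboMinus libraries, so levels are not compared across the 2 types. Reads assigned to genes numbered 4638718 to 8735914 per polyA library and 12319658 to 62675760 per RiboMinus library. Exosc10 had a mean of 48.0 ± 5.09 CPM (SD, n = 7 oocytes) in control and 1.11 ± 0.939 (n = 15) in cKO GV polyA libraries, and no cKO oocyte reached a control oocyte in any of the 5 pairs of groups. All 8 oocyte markers averaged at least 1 CPM in each group. The 12 cumulus and granulosa cell markers summed to 67.7 to 202 CPM per library, mostly Nr5a2, Cyp19a1 and Kitl, against 5280 to 24200 CPM for the oocyte markers. An ERCC mix was added to each oocyte, but the files hold 0 ERCC lines. Every value is thus relative to the other RNA of its library, and less RNA of a gene cannot be told apart from more RNA of the others.

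**Figure D1:**
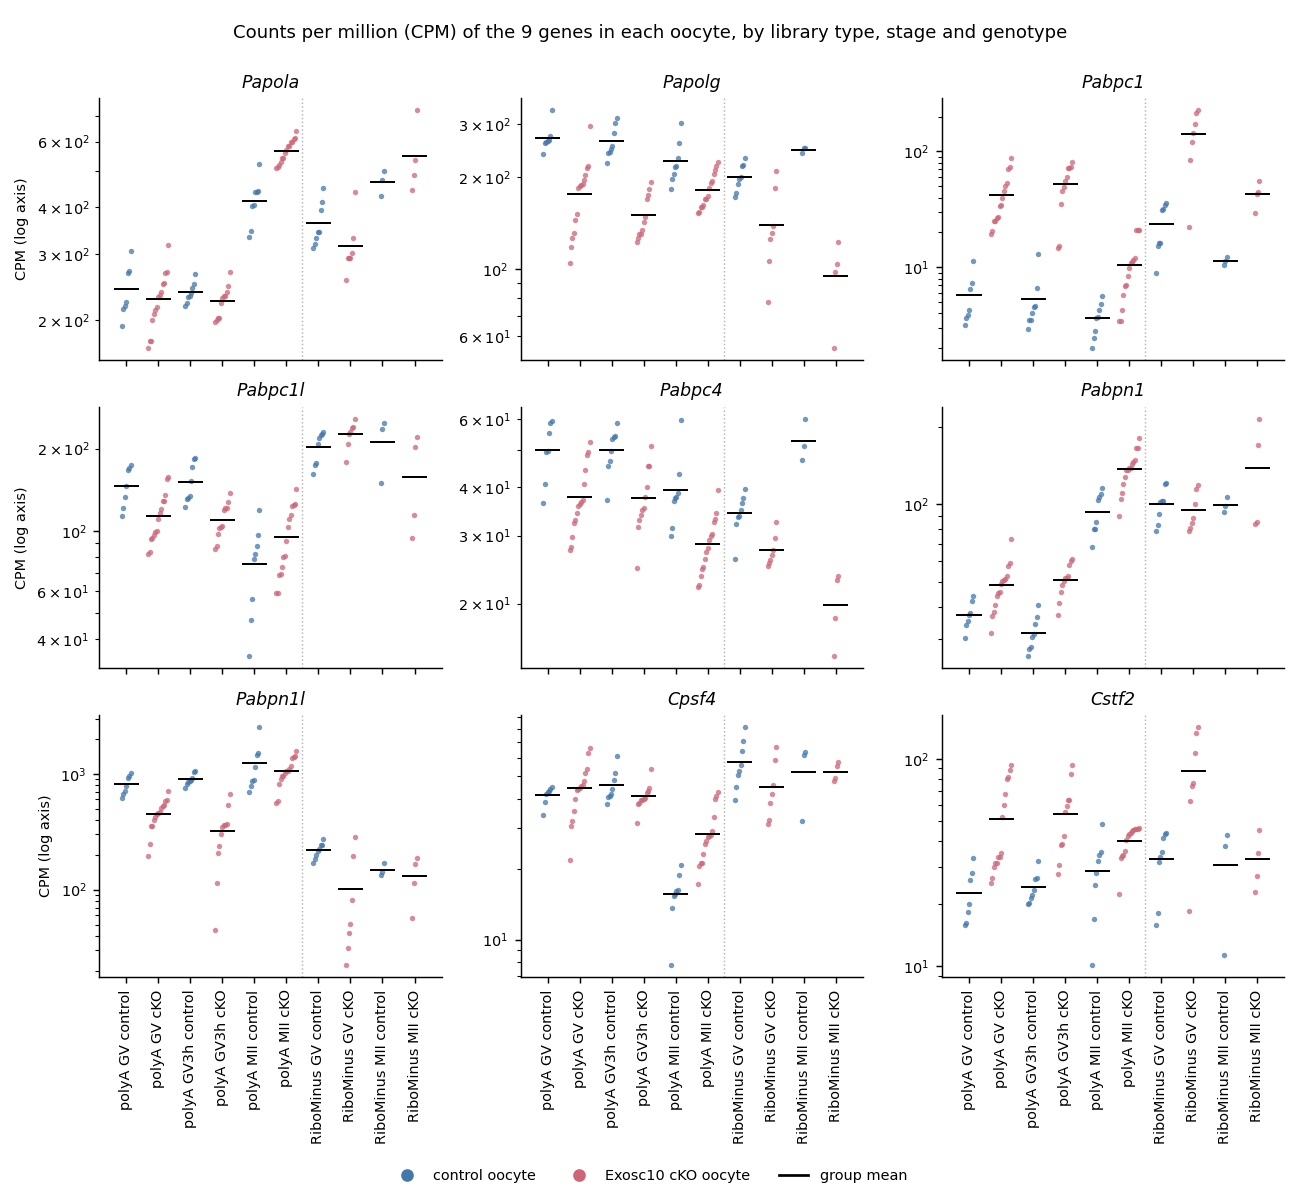
CPM of the 9 genes in every oocyte, on a log axis, by group (blue control, red cKO; the black line is the group mean; the dotted line separates polyA from RiboMinus libraries). Pabpc1 is the gene whose cKO points stand farthest above the controls, and Papolg and Pabpn1l have cKO points below the controls in the GV and GV3h groups.

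Between genotypes, Pabpc1 rose in the cKO and Papolg fell in all 5 comparisons, and Pabpc4 fell in all 5 as well. Pabpn1l fell before maturation and did not pass the test in MII eggs. Cstf2 rose in GV and GV3h oocytes, Pabpn1 rose in the 3 polyA comparisons, and Papola and Cpsf4 passed the test, as higher, in polyA MII eggs alone of the 5 comparisons. In GV polyA libraries 7 of 9 genes differed, 3 higher and 4 lower (edgeR, adjusted p under 0.05), where 40.4% of all genes tested did, 22% higher and 18.5% lower. At GV3h 7 differed, 3 higher and 4 lower, beside 55.5% of all genes, 29.4% higher and 26.1% lower. The polyA MII eggs had 6 that differed, 4 higher and 2 lower, beside 37.6% of all genes, 19% higher and 18.6% lower. At RiboMinus GV 5 differed, 2 higher and 3 lower, beside 37.6% of all genes, 21.2% higher and 16.5% lower. At RiboMinus MII 3 differed, 1 higher and 2 lower, beside 23.7% of all genes, 13.9% higher and 9.78% lower. The median log2 difference of the 9 genes was -0.11, -0.18, 0.40, -0.21 and 0.06 in the same order, beside 0.06, 0.03, 0.04, 0.00 and 0.13 for all genes tested. Marker sums moved with genotype at MII. The cumulus and granulosa cell markers summed to 152 to 169 CPM in control and 68.1 to 106 CPM in cKO RiboMinus MII eggs, and the oocyte markers to 10100 to 11100 and 6750 to 9770 CPM. In polyA MII eggs the oocyte markers summed to 15500 to 19400 CPM in controls and 20200 to 24200 CPM in the cKO, whereas the cumulus and granulosa sums overlapped (103 to 173 and 86.5 to 158 CPM). In the RiboMinus MII libraries the share of reads outside genes was 13.4 to 14.3% in controls and 10.7 to 11.7% in the cKO, and reads assigned to genes numbered 16220993 to 20447150 and 20678209 to 62675760. The part of these shifts in the MII differences of the 9 genes was not tested.

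With counts summed per female the calls kept differed between comparisons, in which stage and number of females changed together. At GV3h all 7 calls were made again with 3 females against 3 (39.7% of all genes called), and in polyA MII eggs 4 were, of Papola, Papolg, Pabpc1 and Pabpc4 (18.3% of all genes). At GV, with 2 females against 2, edgeR called 0 of 9 in the polyA libraries (0.00555% of all genes), with 4 at an unadjusted p under 0.05, namely Papolg, Pabpc1, Pabpn1l and Cstf2. At that unadjusted level were 3446 of all 18004 genes. In the RiboMinus GV libraries edgeR called 0 of 9 (0.0149% of all genes). Pabpc1 and Cstf2, 2 genes, were at an unadjusted p under 0.05, as were 4859 of all 20094 genes. A fit that keeps the oocytes but treats those of 1 female as correlated (voom) called 3 genes at GV in either library type, Papolg, Pabpc1 and Cstf2 in polyA and Papolg, Pabpc1 and Pabpn1l in RiboMinus libraries, beside 9.44% of all genes in polyA and 17.8% in RiboMinus libraries. Scaling to library totals in place of edgeR's TMM factors left 3 higher and 2 lower in polyA GV oocytes, beside 30% of all genes higher and 12.7% lower. It left 2 higher and 2 lower in RiboMinus GV oocytes, beside 25.6% of all genes higher and 13.0% lower. That scaling raised the median log2 difference of all genes by 0.15, 0.17, 0.10, 0.10 and 0.08 in the 5 comparisons. Taken relative to that median, no gene of the 9 moved by more than 0.05 between the scalings. A change of scaling shifts all genes by nearly the same amount, so this follows from the method and does not test the calls.

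**Figure D2:**
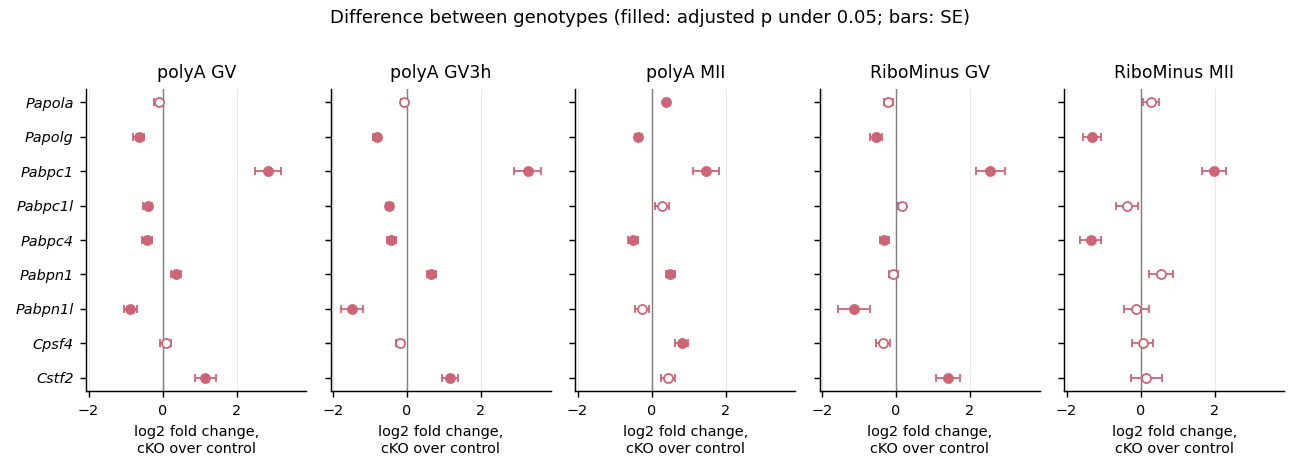
log2 difference, cKO minus control, for the 9 genes (bars ± SE from the edgeR fit) in the 5 stage and library comparisons; filled points have an adjusted p under 0.05. Pabpc1 lies to the right of 0 and Papolg and Pabpc4 to the left in every panel, and Papola passes the test in the polyA MII panel alone.

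Papolg, the gamma form of the nuclear poly(A) polymerase, was lower in cKO oocytes. In polyA GV libraries its lowest, median and highest values were 238, 264 and 332 CPM in controls and 105, 187 and 294 CPM in cKO oocytes. Of the 15 cKO oocytes 14 lay below every control, and the log2 difference was -0.64 ± 0.15 (SE; adjusted p = 0.00162), 1.55-fold lower. At GV3h controls ran from 223 through 251 to 314 CPM and cKO oocytes from 123 through 143 to 192 CPM. There the groups did not overlap, and the log2 difference was -0.82 ± 0.10 (adjusted p = 6.45e-07).

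The Papolg groups overlapped more in polyA MII eggs, with 183, 217 and 302 CPM in controls and 152, 174 and 225 CPM in cKO eggs. The log2 difference there was -0.36 ± 0.09 (adjusted p = 0.00241), and 8 of 15 cKO eggs lay below every control. In RiboMinus MII libraries the 3 control eggs held 249, 239.5 and 249.8 CPM and the 4 cKO eggs 97.6, 54.9, 104 and 122 CPM, 2.5-fold lower (log2 -1.32 ± 0.25, adjusted p = 0.00299). No cKO egg came near a control. In RiboMinus GV libraries controls ran from 172 through 198 to 232 CPM and cKO oocytes from 78.0 through 131 to 210.2 CPM (log2 -0.54 ± 0.16, adjusted p = 0.018). The call at polyA GV was lost without control female V889 (-0.59, adjusted p = 0.0695). That at RiboMinus GV was lost without cKO female V1131 (-0.17, adjusted p = 0.591) and without control female V1132 (-0.62, 0.067) or V1133 (-0.46, 0.167).

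Papola, the main nuclear poly(A) polymerase, showed no called difference between genotypes before maturation. The log2 differences were -0.11 ± 0.12 (adjusted p = 0.468) in polyA GV, -0.09 ± 0.07 (0.282) in GV3h and -0.21 ± 0.12 (0.164) in RiboMinus GV libraries. The last one passed without cKO female V1126 (-0.32, adjusted p = 0.0202). In polyA MII eggs controls held 333, 422 and 521 CPM (lowest, median, highest) and cKO eggs 511, 571 and 639.9 CPM. Of the 15 cKO eggs 12 exceeded every control, and Papola was 1.32-fold higher (log2 0.40 ± 0.07, adjusted p = 9.36e-05). In RiboMinus libraries the 3 control MII eggs held 473, 429.9 and 499.8 CPM and the 4 cKO eggs 727, 445, 489 and 535 CPM, so the groups overlapped (log2 0.29 ± 0.22, adjusted p = 0.368).

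Pabpc1, the cytoplasmic poly(A) binding protein of somatic cells, was nearly absent from control oocytes in polyA libraries, with 13 to 72 reads each. Controls held 3.18, 4.28 and 11.3 CPM (lowest, median, highest) at GV and 2.97, 4.27 and 12.9 CPM at GV3h. The cKO oocytes held 19.4, 34.5 and 88.5 CPM at GV and 14.7, 55.7 and 81.3 CPM at GV3h. The genotypes did not overlap at either stage. Pabpc1 was 7.2-fold higher at GV (log2 2.85 ± 0.35, adjusted p = 1.25e-06) and 9.55-fold higher at GV3h (3.26 ± 0.36, 2.35e-07).

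The excess of Pabpc1 was smaller in polyA MII eggs. Controls held 2.01, 3.70 and 5.64 CPM and cKO eggs 3.45, 9.91 and 21.1 CPM, and 12 of 15 cKO eggs exceeded every control (log2 1.47 ± 0.35, adjusted p = 0.00143). The cKO females differed, with means of 21.1 CPM in V841, 10.7 in V842 and 8.53 in V897, which gave 11 of the 15 eggs, and without V897 the log2 difference was 2.08. RiboMinus libraries, read independently of the tail, also held more Pabpc1 in the cKO. At GV controls ran from 8.90 through 23.8 to 36.2 CPM and cKO oocytes from 22.2 through 145 to 226 CPM (5.88-fold, log2 2.55 ± 0.39, adjusted p = 0.000558). At MII the controls held 12.3, 10.5 and 11.4 CPM and the cKO eggs 44.5, 29.6, 42.9 and 55.6 CPM, with no overlap (3.94-fold, log2 1.98 ± 0.32, adjusted p = 0.00116). Without cKO female V1131 the RiboMinus GV difference missed the threshold (log2 1.68, adjusted p = 0.069).

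Pabpc1l, the oocyte form, showed smaller differences than Pabpc1. In polyA GV libraries controls held 113, 146 and 174 CPM and cKO oocytes 82.0, 110.02 and 157 CPM (log2 -0.40 ± 0.12, adjusted p = 0.0121). At GV3h the values were 122, 143 and 185 CPM against 85.7, 104 and 138 CPM (-0.48 ± 0.10, adjusted p = 0.000512). The groups overlapped at both stages, with 8 of 15 and 9 of 11 cKO oocytes below every control. The GV call was lost under library totals (-0.24, adjusted p = 0.132), in a fit of all groups together (-0.37, 0.0553), with voom (-0.37, 0.221), without cKO female V888 (-0.15, 0.403) and without control female V856 (-0.24, 0.222). In polyA MII eggs the controls ran from 34.6 through 80.6 to 119 CPM and the cKO eggs from 59.3 through 91.8 to 142 CPM (0.28 ± 0.19, adjusted p = 0.26).

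RiboMinus libraries gave no called Pabpc1l difference at GV, with 162, 213 and 231 CPM in controls and 178, 229.9 and 257 CPM in cKO oocytes (log2 0.15 ± 0.10, adjusted p = 0.26). At MII the 3 control eggs held 149, 249 and 235 CPM. The 4 cKO eggs held 114 and 94.0 CPM in female V1166 and 204 and 219.7 CPM in female V1167, and without V1167 Pabpc1l was called lower (-0.94, adjusted p = 0.0386).

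Pabpc4, a further cytoplasmic poly(A) binding protein, was lower in cKO oocytes at every stage. Controls held 36.5, 49.7 and 59.3 CPM (lowest, median, highest) in polyA GV libraries and cKO oocytes 27.5, 36.1 and 52.5 CPM (log2 -0.43 ± 0.13, adjusted p = 0.0094). The GV3h values were 37.1, 51.4 and 58.8 CPM against 24.7, 35.3 and 51.2 CPM (-0.43 ± 0.12, adjusted p = 0.00533). In polyA MII eggs they were 29.9, 37.5 and 59.7 CPM against 22.1, 27.8 and 39.4 CPM (-0.51 ± 0.13, adjusted p = 0.00279). All of these groups overlapped. The RiboMinus MII groups did not: controls held 51.1, 60.07 and 46.9 CPM and cKO eggs 18.3, 23.5, 14.6 and 23.0 CPM, 2.55-fold lower (-1.35 ± 0.28, adjusted p = 0.00531).

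At RiboMinus GV, Pabpc4 ran from 26.0 through 34.3 to 39.5 CPM in controls and from 25.0 through 26.8 to 32.5 CPM in cKO oocytes (-0.32 ± 0.12, adjusted p = 0.0413). This last call was lost under DESeq2 size factors (-0.30, 0.0518), library totals (-0.22, 0.152), no filter on low counts (-0.31, 0.126), all groups in 1 fit (-0.31, 0.0978), with voom (-0.32, 0.135) and without V1131, V1132 or V1133 (-0.30, -0.24 and -0.40). In polyA libraries the calls were lost under library totals at GV (-0.28, 0.0998) and GV3h (-0.25, 0.0907), with voom at GV (-0.40, 0.166), without V888 (-0.11, 0.538) or V856 (-0.28, 0.176) at GV and without V993 at GV3h (-0.31, 0.086). The polyA MII call held under each alternative run.

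Pabpn1l was the gene of the 9 with the largest drop in cKO GV3h oocytes. In polyA GV libraries controls held 616, 792 and 1012 CPM and cKO oocytes 195, 457 and 711 CPM, with 14 of 15 cKO oocytes below every control (log2 -0.87 ± 0.17, adjusted p = 0.000297). With voom this call was lost (-0.89, adjusted p = 0.0753). At GV3h controls held 750.2, 878 and 1049 CPM and cKO oocytes 44.6, 350.4 and 664 CPM. The GV3h groups did not overlap, and Pabpn1l was 2.82-fold lower (-1.49 ± 0.30, adjusted p = 0.000197). In MII eggs the groups overlapped, at 697, 1005 and 2519 CPM in controls against 563, 1061 and 1567 CPM in the cKO (log2 -0.26 ± 0.20, adjusted p = 0.31).

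In RiboMinus libraries the cKO females split for Pabpn1l. GV controls ran from 171 through 219 to 276 CPM and cKO oocytes from 22.4 through 50.7 to 282 CPM (-1.13 ± 0.43, adjusted p = 0.0486). Female V1131 averaged 36.7 CPM and female V1126 187 CPM. Without V1131 the log2 difference was -0.23 (adjusted p = 0.7), without V1126 it was -2.6, and without control female V1132 or V1133 it was -1.15 (0.166) or -1.10 (0.2). At MII the controls held 169, 133 and 143 CPM and the cKO eggs 189, 56.7, 114 and 167 CPM, with overlap (-0.11 ± 0.33, adjusted p = 0.844).

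Female V1131 also stood apart from V1126 in other genes. It averaged 189 CPM of Pabpc1 against 75.9 in V1126, 115 against 51.6 CPM of Cstf2 and 110.2 against 178 CPM of Papolg. Without V1131, edgeR called 0 of the 9 genes in that comparison and 0.631% of all genes.

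Pabpn1, the general nuclear poly(A) binding protein, was higher in cKO polyA libraries. GV controls held 30.3, 37.1 and 44.1 CPM and cKO oocytes 31.6, 49.1 and 73.0 CPM (log2 0.36 ± 0.13, adjusted p = 0.0364). GV3h controls held 25.7, 30.9 and 40.5 CPM and cKO oocytes 37.2, 51.6 and 61.3 CPM, 10 of 11 of them above every control (0.66 ± 0.12, adjusted p = 5.55e-05). In MII eggs the values were 68.5, 94.5 and 116 CPM against 90.2, 138 and 180.3 CPM (0.50 ± 0.12, adjusted p = 0.0012). The GV call was lost with no filter (0.34, 0.0803), with voom (0.31, 0.439) and without V888 (0.25, 0.273), V856 (0.33, 0.167) or V889 (0.33, 0.258), and the MII call without V897 (0.33, 0.196).

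RiboMinus libraries showed no called Pabpn1 difference, with 78.5, 102 and 120.4 CPM in GV controls and 79.0, 88.6 and 118 CPM in cKO oocytes (-0.08 ± 0.12, adjusted p = 0.642). At MII the controls held 98.1, 93.2 and 106 CPM. The cKO eggs held 169.9 and 214 CPM in V1166 and 83.9 and 85.1 CPM in V1167 (0.55 ± 0.33, adjusted p = 0.251), and without V1167 the value was 1.04 (0.0103).

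Cstf2 encodes CstF-64, which binds GU-rich RNA downstream of the cut. It was higher in cKO oocytes before maturation. In polyA GV libraries controls held 15.8, 19.98 and 33.3 CPM and cKO oocytes 25.1, 35.0 and 93.3 CPM, 10 of 15 above every control (log2 1.16 ± 0.28, adjusted p = 0.00199). At GV3h controls held 19.9, 22.7 and 32.1 CPM and cKO oocytes 27.9, 55.4 and 93.8 CPM, 9 of 11 above every control (1.16 ± 0.21, adjusted p = 6.63e-05). At RiboMinus GV 6 of 7 cKO oocytes exceeded every control, with 15.7, 34.5 and 44.0 CPM in controls and 18.5, 76.3 and 142 CPM in the cKO (1.41 ± 0.32, adjusted p = 0.00427).

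The Cstf2 excess differed between cKO females at GV, at 82.2 CPM in V857 and 35.9 CPM in V888. The log2 difference was 1.84 without V888 and 0.75 (adjusted p = 0.188) without control female V889. At RiboMinus GV it was 1.21 (0.0731) with voom, 0.66 (0.376) without V1131, 1.33 (0.0588) without V1132 and 1.47 (0.0526) without V1133. In polyA MII eggs controls ran from 10.1 through 30.2 to 48.3 CPM and cKO eggs from 22.2 through 43.3 to 46.4 CPM, so no cKO egg left the control range. That difference of 0.44 ± 0.19 missed the threshold (adjusted p = 0.0642), but it passed with DESeq2 (0.46, 0.0375), under library totals (0.54, 0.0284), among genes with a mean of at least 50 counts (0.46, 0.0432) and without V853 (0.71, 0.0354). RiboMinus MII controls held 37.8, 11.3 and 43.1 CPM and cKO eggs 22.8, 45.5, 27.3 and 35.3 CPM (0.15 ± 0.42, adjusted p = 0.834).

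Cpsf4 encodes the zinc finger subunit of CPSF that contacts the AAUAAA signal. It did not differ by the test in GV and GV3h oocytes, at log2 0.08 ± 0.16 (adjusted p = 0.728) in polyA GV, -0.18 ± 0.11 (0.178) in GV3h and -0.36 ± 0.19 (0.135) in RiboMinus GV libraries. The first value joins cKO females on either side of the controls, at 32.0 CPM in V857 and 50.6 CPM in V888, around controls of 34.2, 42.7 and 45.1 CPM (lowest, median, highest). It was called higher without V857 (0.28, adjusted p = 0.0411) and lower without V888 (-0.39, 0.0358). The RiboMinus GV value was called lower without V1126 (-0.65, 0.00617). Among polyA MII eggs controls held 7.78, 15.9 and 20.9 CPM and cKO eggs 17.3, 27.4 and 42.7 CPM, and 13 of 15 cKO eggs exceeded every control. That 1.76-fold excess (0.81 ± 0.18, adjusted p = 0.000968) was lost without V897 (0.46, 0.253). RiboMinus MII controls held 63.4, 61.6 and 32.1 CPM and cKO eggs 49.0, 47.8, 55.4 and 57.3 CPM (0.06 ± 0.28, adjusted p = 0.907).

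Counting genes whose oocyte values did not overlap between genotypes, there was 1 of 9 in polyA GV (Pabpc1; 6.29% of all genes) and 3 of 9 in GV3h libraries (Papolg, Pabpc1 and Pabpn1l; 13.2% of all genes). There were 0 of 9 in polyA MII (4.5% of all genes) and RiboMinus GV libraries (2.41% of all genes) and 3 of 9 in RiboMinus MII libraries (Papolg, Pabpc1 and Pabpc4; 36.5% of all genes).

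The maturation comparisons ask how the levels change from GV to MII. During the first 3 h of culture edgeR called 0 of the 9 genes in either genotype, with 0 at an unadjusted p under 0.05 and 0 by DESeq2, voom or female sums, where 0.519% of all genes in controls and 0.602% in cKO oocytes were called (0.0124% and 0% with female sums). At an unadjusted edgeR p under 0.05 were 1338 of all 12716 genes in controls and 1731 of 14280 in the cKO. Library measures moved with maturation as well. The share of reads outside genes was 12.8 to 14.1% at GV and 8.43 to 9.27% at MII in control polyA libraries, and 12.9 to 17% and 8.56 to 9.67% in the cKO. In control RiboMinus libraries the cumulus and granulosa cell markers summed to 104 to 150 CPM at GV and 152 to 169 CPM at MII, and the oocyte markers to 5280 to 9950 and 10100 to 11100 CPM. The cumulus and granulosa sums went the other way in cKO RiboMinus libraries, from 96.9 to 202 CPM to 68.1 to 106 CPM. In polyA libraries they were 81.2 to 104 and 103 to 173 CPM in controls and 69.2 to 101 and 86.5 to 158 CPM in the cKO. Reads assigned to genes numbered 5535240 to 6700256 at GV and 6863768 to 8459101 at MII in control polyA libraries. The part of these measures in the maturation changes was not tested. Without V857 Papolg (-0.41, adjusted p = 0.0384) and Cpsf4 (-0.32, 0.0461) were called lower at GV3h in the cKO.

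From GV to MII in control polyA libraries, Papola, Pabpn1 and Pabpn1l rose and Papolg, Pabpc1l and Cpsf4 fell, 3 higher and 3 lower of 9, where 63.4% of all genes were called, 30.1% higher and 33.3% lower. Papola rose from a median of 223 to 422 CPM (log2 0.77 ± 0.12, adjusted p = 9.93e-06) and Pabpn1 from 37.1 to 94.5 CPM (1.32 ± 0.13, 6.78e-08). Cpsf4 fell from 42.7 to 15.9 CPM (-1.42 ± 0.18, 1.21e-06), and Pabpc1l fell from 146 to 80.6 CPM (-0.96 ± 0.21, 0.000476). For Papola, Pabpn1 and Cpsf4 every MII egg lay outside the GV range (3 of 9; 38.2% of all genes). With counts summed per female 4 genes were called, Papola, Pabpc1l, Pabpn1 and Cpsf4 (43.1% of all genes).

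The smaller control changes depended on the setting. The rise of Pabpn1l (0.59 ± 0.23, adjusted p = 0.0315) missed the threshold under library totals (0.19), DESeq2 size factors (0.55), all groups in 1 fit (0.60), among genes with a mean of at least 50 counts (0.49), with voom (0.48) and without V836, V856 or V889 (0.39, 0.51 and 0.70). The fall of Papolg (-0.26 ± 0.10, 0.0337) was lost with no filter (-0.26), all groups in 1 fit (-0.25), voom (-0.26) and without V836, V853 or V889 (-0.22, -0.21 and -0.17). Pabpc1 (-0.64, 0.121), Pabpc4 (-0.35, 0.0575) and Cstf2 (0.34, 0.27) missed the threshold. Pabpc4 passed with DESeq2 (-0.40), under its size factors (-0.40), library totals (-0.73), the 50-count filter (-0.46), all groups in 1 fit (-0.34) and without V896 (-0.46) or V889 (-0.54). Pabpc1 passed under library totals (-1.03) and without V889 (-1.17).

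In cKO polyA libraries Papola (1.30 ± 0.08, adjusted p = 1.12e-16), Pabpn1 (1.48 ± 0.11, 2.06e-14) and Pabpn1l (1.21 ± 0.15, 1.19e-08) rose from GV to MII. Pabpc1 (-2.02 ± 0.27, 4.89e-08), Pabpc4 (-0.42 ± 0.11, 0.000744) and Cpsf4 (-0.67 ± 0.14, 9.33e-05) fell, again 3 higher and 3 lower, where 74.8% of all genes were called, 33.1% higher and 41.7% lower. Papola and Pabpn1 exceeded the GV range in all 15 MII eggs (2 of 9; 25.3% of all genes). Female sums called 4 genes, namely Papola, Pabpc1, Pabpn1 and Pabpn1l (37.7% of all genes). Without V888 Cpsf4 was no longer called (-0.08), without V857 Pabpc4 was not (-0.23, 0.0541), and without V897 the fall of Pabpc1 was -1.38. Papolg was at 0.02 and became a called fall under library totals (-0.42) and a called rise without V888 (0.54). Pabpc1l (-0.27, 0.0549) passed with DESeq2, with its size factors (-0.28 in both), under library totals (-0.72), with the 50-count filter (-0.32) and without V897 (-0.50). Cstf2 (-0.37, 0.0699) passed under library totals (-0.81), with the 50-count filter (-0.40) and without V888 (-0.93).

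Library totals gave 2 higher and 5 lower in control and 3 higher and 6 lower in cKO polyA libraries. Beside them 20% of all genes were higher and 43.3% lower in controls, and 21.3% higher and 54.9% lower in the cKO, as that scaling moved the median of all genes by -0.38 in controls and -0.45 in the cKO. DESeq2 size factors gave 2 higher and 4 lower in controls, beside 28.7 and 34.6% of all genes. Relative to the median of all genes, values of the 9 genes moved by at most 0.02 between TMM and library totals in these 2 comparisons. That follows from the near-uniform shift and does not test the calls.

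The RiboMinus libraries gave another set of maturation changes. In controls Papola (0.36 ± 0.12, adjusted p = 0.0289) and Pabpc4 (0.63 ± 0.16, 0.00475) rose. Pabpc1 (-1.06 ± 0.36, 0.0281) and Pabpn1l (-0.57 ± 0.15, 0.00613) fell, where 30.9% of all genes were called, 15% higher and 15.8% lower. Papolg, Pabpc4 and Pabpn1l had no overlap between stages (3 of 9; 23.1% of all genes). Pabpn1 (-0.01), Pabpc1l (0.06), Cpsf4 (-0.13) and Cstf2 (-0.10) lay close to 0. The 3 control eggs came from 1 female, so stage and female cannot be told apart. In a fit of all groups Pabpc4 alone was called of the 9 (19.4% of all genes), and Papolg (0.29, 0.0551) passed with DESeq2 (0.30) and voom (0.30). Papola was lost without egg V1145_2 or V1145_4 or without female V1133 (0.35, 0.28 and 0.27) and with no filter (0.36). Pabpc1 was lost without any 1 of the 3 eggs (-1.12, -1.01 and -1.09) and without V1133 (-1.04).

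In cKO RiboMinus libraries Papola rose (0.81 ± 0.18, 0.00979) and Pabpc1 (-1.69 ± 0.46, 0.0248) and Cstf2 (-1.41 ± 0.42, 0.0375) fell, where 16.1% of all genes were called, 7.4% higher and 8.67% lower. For Papola and Pabpc4 every MII egg lay outside the GV range (2 of 9; 11.4% of all genes). All 3 calls were lost without V1131 (0.68, -0.82 and -0.65; 1.16% of all genes called), without V1166 (0.69, -1.52 and -1.49) and with voom (4.65% of all genes). Pabpc1 and Cstf2 were also lost without V1167 (-1.90 and -1.34), Pabpc1 without any of 3 single eggs (-1.69 to -1.52) and Cstf2 without any of 4 (-1.59 to -1.24). Pabpc4 passed in a fit of all groups (-0.47). Female sums called 0 (0% of all genes), with 3 at an unadjusted p under 0.05, as were 3654 of all 20796 genes. Without V1167 Pabpc1l (-1.10) fell and Pabpn1 (1.03) rose by the test, and without V1126 Pabpn1l (1.85) rose.

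**Figure D3:**
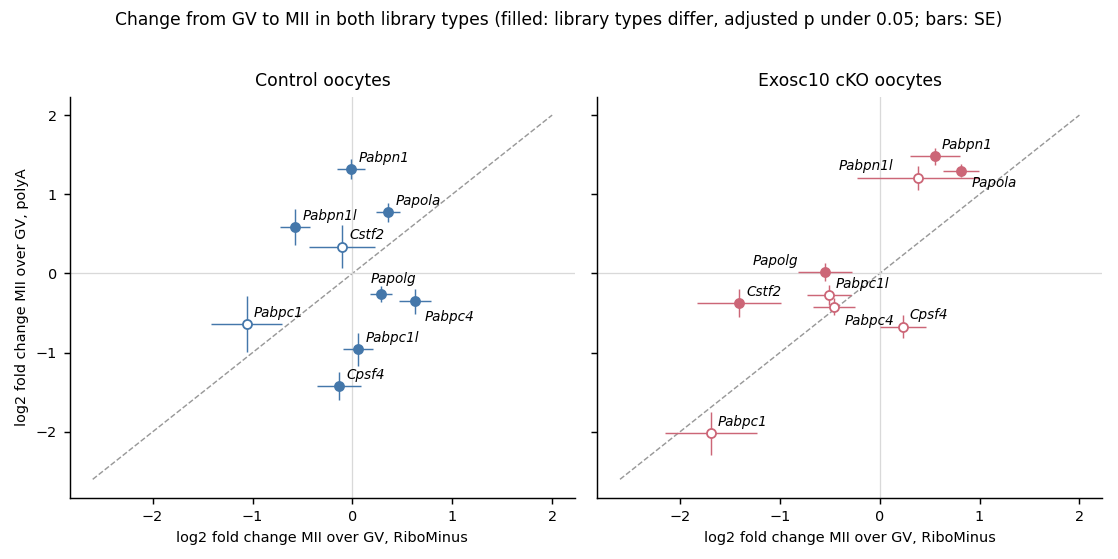
log2 change from GV to MII in polyA libraries (vertical) against RiboMinus libraries (horizontal), control and cKO in separate panels; filled points are genes whose change differed between library types (adjusted p under 0.05), and the dashed line marks equal change. In controls Pabpn1 and Pabpn1l lie above the line and Cpsf4, Pabpc1l and Pabpc4 below it.

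The difference of these 2 changes was tested directly, as the GV-to-MII change in polyA minus that in RiboMinus libraries. The 2 library types came from different females, in controls and in the cKO. Library type and female therefore cannot be told apart in this test. In controls 7 of 9 genes differed (3 higher and 4 lower in polyA), where 49.6% of all genes did, 24.5% higher and 25.1% lower. Pabpn1 (1.5 ± 0.21, adjusted p = 4.73e-07), Pabpn1l (1.32 ± 0.32, 0.000878) and Papola (0.58 ± 0.18, 0.00805) gained more in polyA libraries. Cpsf4 (-1.11 ± 0.29, 0.00203), Pabpc1l (-0.85 ± 0.29, 0.0143), Pabpc4 (-0.80 ± 0.23, 0.00431) and Papolg (-0.39 ± 0.16, 0.0484) gained less. Thus Pabpn1, for example, had medians of 37.1 at GV and 94.5 CPM at MII in polyA libraries, and of 102 and 98.1 CPM in RiboMinus libraries. The RiboMinus stage contrast rests on 1 control female at MII.

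Library totals shifted the median of all genes in that test by -0.48, and Papola fell to 0.09 and lost its call. Relative to the median, Papola stood at 0.62 under TMM and 0.61 under library totals, and Pabpn1 at 1.55 and 1.53. As the scaling shifts all genes nearly alike, these values do not test the lost call. The Papolg call was also lost with no filter, in a fit of all groups, without any 1 of the 3 RiboMinus MII control eggs and without females V836, V853, V1132 or V889 (-0.40 to -0.28). Pabpc1l was lost without eggs V1145_3 or V1145_4 and without females V1133 or V856 (-0.77 to -0.69).

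In the cKO 4 of 9 differed, all higher in polyA, where 45.6% of all genes did, 23% higher and 22.6% lower. They were Pabpn1 (1.16 ± 0.25, 0.000152), Papola (0.73 ± 0.17, 0.000524), Papolg (0.81 ± 0.26, 0.0103) and Cstf2 (1.29 ± 0.41, 0.00924). Female sums called 0 (12.2% of all genes). Library totals left Pabpn1 (0.54) higher and Cpsf4 (-1.32) lower, with Papola at 0.08, Papolg at 0.13 and Cstf2 at 0.66 no longer called, and DESeq2 size factors gave 3 higher and 1 lower. Of all genes 11.1% were higher and 35.7% lower under library totals and 18.0% and 26.9% under DESeq2 size factors. Cpsf4 was also called lower with DESeq2 (-0.92), its size factors, the 50-count filter (-0.77), all groups in 1 fit (-0.67) and without V897, V1126 or V857 (-1.10, -1.02 and -0.92). Papolg was also lost with DESeq2 and its size factors (0.55 in both), with voom (0.85), without V897, V1126, V857 or V1166 (0.39 to 0.62) and without egg V1166_2 (0.62). Cstf2 was also lost with voom (1.12) and without V897, V1131, V888 or V1167 (0.53 to 1.23). Without V1131 or egg V1166_1 Pabpn1l was called (1.96 and 1.29), and without V1167 or egg V1167_2 Pabpc1l was (1.08 and 0.68). Without V1166 Pabpn1 was at 1.89.

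Whether maturation changed the genes differently in the cKO was tested as the difference of the GV-to-MII changes. In polyA libraries 4 of 9 passed, 3 higher and 1 lower, where 14.7% of all genes did, 9.55% higher and 5.17% lower. They were Papola (0.55 ± 0.13, 0.00321), Cpsf4 (0.77 ± 0.24, 0.0213), Pabpc1l (0.72 ± 0.24, 0.033) and Pabpc1 (-1.35 ± 0.46, 0.0386). Papola thus gained more, Cpsf4 and Pabpc1l lost less and Pabpc1 lost more in the cKO. DESeq2 size factors left 1 higher and 1 lower, beside 6.77 and 6.81% of all genes, and library totals 2 higher and 1 lower, beside 7.15 and 6.58%. Female sums called 0 (0.0722% of all genes), with Papola as the 1 gene at an unadjusted p under 0.05, beside 2239 of all 18010 genes. With voom 0 were called (3.53% of all genes), with Papola at an adjusted p of 0.0563. Without control female V889 all 4 were lost (Papola 0.34, Cpsf4 0.63, Pabpc1l 0.88 and Pabpc1 -0.85), as they were without cKO female V897 (0.53, 0.40, 0.45 and -0.75). Cpsf4 was also lost without V856, V857 or V853 (0.50 to 0.78) and Pabpc1l with DESeq2 (0.62) and without V856, V888, V853 or V896 (0.50 to 0.67). Pabpc1 was lost with no filter (-1.33) and without V857, V836 or V853 (-1.30 to -1.25), and was at -1.97 without V856. Without V888 Papolg (0.74) and Cstf2 (-1.34) passed, and without V836 Pabpn1l (0.84). In RiboMinus libraries Pabpc4 differed (-1.10 ± 0.25, 0.00448), 1 of 9 where 14.8% of all genes did, 7.85% higher and 7% lower, rising in controls and not in the cKO. Papolg passed there with DESeq2 (-0.84), with the 50-count filter (-0.87) and without V1167 (-1.16) or V1131 (-1.18). Without V1167 Pabpc1l (-1.18) and Pabpn1 (1.02) passed too, and without V1126 Pabpn1l (2.40) and Cstf2 (-1.72).

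Ratios of paired genes within an oocyte need no scaling between libraries, and 3 were tested by permutation of oocytes, in 33 tests with adjusted p-values. The ratio of the oocyte form Pabpc1l to Pabpc1 in polyA GV libraries averaged 4.77 on the log2 scale in controls and 1.55 in the cKO (permutation test, adjusted p = 7.85e-05). At GV3h the means were 4.94 and 1.25 (adjusted p = 7.85e-05, permutation) and at MII 4.3 and 3.34 (0.0669, permutation). In RiboMinus GV libraries they were 3.23 and 0.96 (exact, adjusted p = 0.00326), and at MII 4.18 and 1.81 (exact, 0.051). The RiboMinus MII ratios did not overlap between genotypes. With 4 eggs against 3 there are 35 splits, so the unadjusted exact p cannot go below 0.0286. The test stood at that floor, which adjusted to 0.051, and so could not pass. By the test the balance moved toward Pabpc1 in cKO oocytes at GV and GV3h. The MII differences went the same way, at -0.96 in polyA and -2.36 in RiboMinus libraries, beside -2.27 at RiboMinus GV. From GV to MII the ratio changed by 1.79 in cKO polyA libraries (permutation, adjusted p = 7.85e-05) and by 0.86 in cKO RiboMinus libraries (exact, 0.204). In controls it changed by -0.47 in polyA (exact, 0.199) and by 0.95 in RiboMinus libraries (exact, 0.0917).

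Pabpn1l to Pabpn1 fell from 4.43 in control to 3.19 in cKO polyA GV oocytes (permutation, adjusted p = 0.000513), from 4.82 to 2.39 at GV3h (permutation, 0.000249) and from 3.61 to 2.92 at MII (permutation, 0.00754). RiboMinus GV means were 1.13 and -0.46 (exact, 0.0143), and the cKO female means there lay on either side of 0, at -1.31 and 0.66. RiboMinus MII means were 0.57 and -0.09 (exact, 0.647). Papolg to Papola stood at 0.17 in control and -0.39 in cKO polyA GV oocytes (permutation, 0.000435), at 0.14 and -0.59 at GV3h (permutation, 7.85e-05) and at -0.88 and -1.65 at MII (permutation, 7.85e-05). In RiboMinus libraries it stood at -0.85 and -1.23 at GV (exact, 0.0765) and -0.92 and -2.57 at MII (exact, 0.051). The MII ratios did not overlap there, and the unadjusted exact p stood at its floor of 0.0286 for 35 splits, so that test could not pass. During maturation Papolg to Papola changed by -1.05 in control polyA libraries (permutation, 0.000513) and by -0.07 in control RiboMinus libraries (exact, 0.647). In the cKO it changed by -1.25 in polyA (permutation, 7.85e-05) and by -1.34 in RiboMinus libraries (exact, 0.00769). With female means as replicates a permutation p cannot go below 0.1 with 3 females against 3 or 0.333 with 2 against 2, so none of these differences could pass the threshold. Of the 16 ratio differences with an adjusted p under 0.05, 12 kept an unadjusted permutation p under 0.05 without any 1 female and with 5 added to each count. Among these, Pabpc1l to Pabpc1 changed by 0.77 in place of 1.79 from GV to MII in cKO polyA libraries without V897, and its RiboMinus GV difference of -2.27 was -1.41 without V1131 and -2.91 without V1126. The other 4 were all of Pabpn1l to Pabpn1. The polyA MII difference lost it without V897 (-0.69, permutation p = 0.133), the RiboMinus GV difference without V1131 (-0.47, exact p = 0.23; without V1126 it was -2.44) or V1133 (-1.49, 0.0667) and the control maturation changes of -0.82 in polyA and -0.56 in RiboMinus libraries without V853 or V889 (permutation p = 0.1 and 0.097) and without V1133 (exact p = 0.0857).

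**Figure D4:**
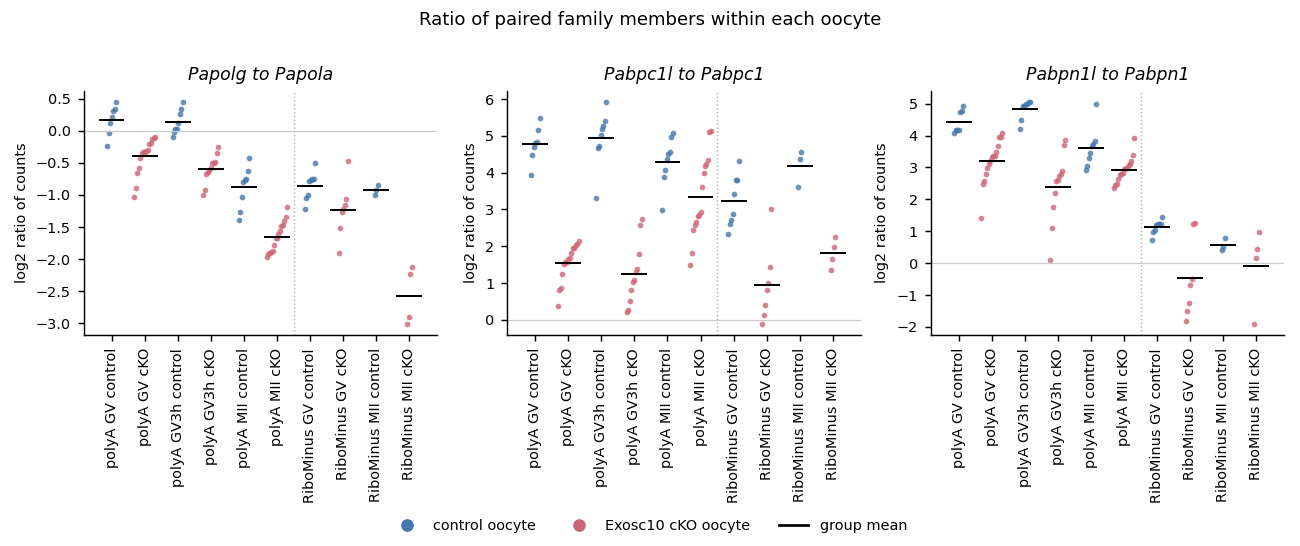
log2 ratio of counts within each oocyte (0.5 added to each count) for Pabpc1l to Pabpc1, Pabpn1l to Pabpn1 and Papolg to Papola, by group (blue control, red cKO). The Pabpc1l to Pabpc1 ratio averages 4.77 in control and 1.55 in cKO polyA GV oocytes, and the Papolg to Papola ratio is lowest in RiboMinus MII cKO eggs, at -2.57.

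Per kilobase of annotated exon, Pabpn1l had the highest mean level of the 9 genes in all 10 groups, but in RiboMinus GV cKO oocytes its 84.7 ± 83.3 did not differ from the 82.8 ± 9.44 CPM per kb of Pabpc1l beyond the spread. Nor did its 110.3 ± 49.4 in RiboMinus MII cKO eggs differ from the 83.2 ± 18.8 CPM per kb of Papola. SDs were only set side by side, and no order of genes was tested. In RiboMinus GV cKO oocytes Pabpn1l (1193 exon bases) averaged 36.7 CPM in V1131 and 187 CPM in V1126. Pabpc1l (2724 exon bases) averaged 232 and 216 CPM. Per kilobase, the mean of Pabpn1l was thus the lower of these 2 genes in V1131 and the higher in V1126. In control polyA GV oocytes Pabpn1l stood at 681 ± 129.6 CPM per kb (SD, n = 7). Pabpc1l followed at 53.7 ± 9.003 and Papolg at 49.2 ± 5.34 CPM per kb, which did not differ beyond their spread, and then Papola at 36.7 ± 6.09 CPM per kb. Pabpc4 at 12.4 ± 2.16, Pabpn1 at 12.3 ± 1.56 and Cpsf4 at 11.5 ± 1.05 CPM per kb could not be ordered. Cstf2 at 2.45 ± 0.732 and Pabpc1 at 0.877 ± 0.443 CPM per kb were lowest, and Pabpc1 was last in all 3 control polyA groups. In RiboMinus GV cKO oocytes Pabpc1 reached 21.5 ± 11.1 CPM per kb, between Papolg at 25.3 ± 8.20 and Cpsf4 at 12.5 ± 3.66 CPM per kb, and differed from neither beyond the spread.

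Lists of other genes of the pathway were examined for context. Each count in them stands against the share of all genes called between genotypes, which was 40.4% at polyA GV, 55.5% at GV3h, 37.6% in polyA MII, 37.6% at RiboMinus GV and 23.7% in RiboMinus MII libraries. Of 17 other cleavage and polyadenylation factors, 16 were tested in polyA GV libraries and 7 rose and 3 fell in the cKO. At GV3h 8 rose and 4 fell of 16. At polyA MII 4 rose and 3 fell of 13, and in RiboMinus libraries 7 rose and 4 fell of 16 at GV and 4 rose and 1 fell of 16 at MII. Cpsf7 and Clp1, subunits of the CFIm and CFIIm cleavage factors, rose in 4 of 5 comparisons, Cpsf7 by 1.71 to 3.13 on the log2 scale. Clp1 rose by 2.81 (polyA GV), 4.74 (GV3h) and 3.17 (RiboMinus GV), and in RiboMinus MII libraries it had 0 reads in each of 3 control eggs and 22 to 118 reads in the 4 cKO eggs. Rbbp6, which activates CPSF for cleavage, rose in 3 (1.81 to 2.49), as did Nudt21 (1.5 to 2.01), the RNA-binding subunit of CFIm, Pcf11 (0.61 to 0.85), Sympk (0.32 to 1.29) and Cstf3 (0.60 to 0.84). Cpsf2 (-0.93 to -0.36) and Fip1l1 (-1.33 to -0.32), both CPSF subunits, fell in 4. Cpsf4l fell in 3 (-0.57 to -0.42) and rose in polyA MII eggs (0.66 ± 0.19, adjusted p = 0.00638).

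Of 11 noncanonical polymerases, 0 rose and 4 fell of 10 tested in polyA GV, 0 rose and 6 fell of 9 in GV3h, 1 rose and 1 fell of 9 in polyA MII, 1 rose and 3 fell of 10 in RiboMinus GV and 5 rose and 0 fell of 11 in RiboMinus MII libraries. Mtpap, the mitochondrial poly(A) polymerase (-0.43 to -0.35), Tent5c (-0.92 to -0.29) and Tut7, a terminal uridylyltransferase (-1.18 to -0.41), fell in 3 comparisons each. The largest change in this list at RiboMinus MII was that of Tent5d (1.64 ± 0.38, adjusted p = 0.00886).

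A list of 13 genes held other poly(A) binding proteins and partners of such proteins. Of these, 1 rose and 4 fell of 9 at polyA GV, and 2 rose and 5 fell of 9 at GV3h. In polyA MII 3 rose and 3 fell of 9, at RiboMinus GV 2 rose and 4 fell of 9, and at RiboMinus MII 1 rose and 3 fell of 10. Paip1, which binds PABPC1 and stimulates translation, fell in all 5 (-1.37 to -0.70), as did Larp4 (-1.07 to -0.85), a binding partner of PABPC1 and of the tail. Larp4b fell in 4 (-0.65 to -0.46) and Larp1, which binds tails and the caps of ribosomal protein mRNAs, rose in 4 (1.06 to 1.78). Paip2, which displaces PABPC1 from tails, fell in 3 (-1.5 to -0.31) and rose in polyA MII eggs (1.25 ± 0.17, adjusted p = 2.49e-06), where Paip2b rose as well (1.22 ± 0.12, 5.34e-09).

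The last list held 6 genes linked to the decay of polyadenylated nuclear RNA by the exosome. Of them 1 rose and 3 fell at polyA GV and at GV3h, and 1 rose and 3 fell of 5 in polyA MII. At RiboMinus GV 1 rose and 2 fell, and at RiboMinus MII 1 rose and 1 fell. Mtrex, the exosome's helicase, fell in all 5 (-1.21 to -0.59) and Zfc3h1, which joins it to tailed RNA, rose in all 5 (0.39 to 0.93). Rbm26 fell in 4 (-0.68 to -0.52) and Rbm27 in 3 (-0.55 to -0.40). Over the 4 lists, in the order of the comparisons above, 23 of 41, 29 of 40, 19 of 36, 24 of 41 and 16 of 43 genes tested were called. With counts summed per female edgeR called 0 of them at either GV comparison, 21 at GV3h and 14 in polyA MII eggs. The shares of all genes in those fits were 0.00555% at polyA GV, 0.0149% at RiboMinus GV, 39.7% at GV3h and 18.3% in polyA MII. The median log2 difference over the 4 lists lay between -0.11 and 0.06.

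The genes whose mean log2 level followed each of the 9 most closely over the 16 females of the polyA libraries, among 9083 genes, are given as a description, since these females share stages and genotypes. Papola was closest to Mfsd14b (r = 0.988) and Srsf10 (0.988), and Papolg to Cnst (0.962) and Pdzph1 (0.955). Pabpc1 was closest to Relt (0.969) and Mdn1 (0.964), Pabpc1l to Gbx2 (0.946) and Smarcd2 (0.939) and Pabpc4 to A930012L18Rik (0.957) and Grhl1 (0.955). Pabpn1 was closest to Gm20521 (0.999), which shares its exons, and to Ccnyl1 (0.984), and Pabpn1l to Cux1 (0.944) and Cnn1 (0.943). Cpsf4 was closest to Kif9 (0.99) and Uchl1os (0.973), and Cstf2 to Il1r1 (0.959) and Tgfbr1 (0.947).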

How the data were processed

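Single mouse oocytes were sequenced as polyA or RiboMinus libraries. The deposited files hold raw counts of reads per Ensembl gene, 1 file per oocyte. Per the submitters' processing notes, the tools named were cutadapt 2.5, FastQC 0.11.8, STAR 2.7.2a, SAMtools 1.9, HTSeq 0.9.1, R 3.5.1 and DESeq2 1.24.0, with build mm10. The annotation release and strand setting are not given in the sources used here. The 5 summary lines of each file, 8.43 to 17% of polyA and 10.6 to 14.6% of RiboMinus reads, were left out, and 22 files of ribosomal RNA libraries were not used. Symbols came from GENCODE M21, which matched 55394 of 55573 identifiers.

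The counts were fitted with edgeR 4.0.16 in R 4.3.3 (limma 3.58.1; filterByExpr, TMM, quasi-likelihood test) on the groups compared, with Benjamini-Hochberg adjustment over all genes tested and a threshold of 0.05. The SE is the log2 fold change over the root of F. The fit was tested on counts simulated for the polyA GV and RiboMinus MII genotype comparisons. Each oocyte was drawn independently there, so the simulation does not test the effect of oocytes that share a mother. Alternatives were DESeq2 1.42.0, its size factors, library totals, no filter, a filter on mean counts under 50, sums over the oocytes of each female, voom with female as a block of correlated oocytes, all groups in 1 fit, and leaving out each female or, in groups of at most 5, each oocyte. Nothing in the labels says more of independence than the female and oocyte numbers.

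Ratios used counts with 0.5 added (5 as an alternative, or female means) and two-sided exact permutation tests, or 100000 resamples where there were too many splits, for which 1e-05 is the smallest p. Python 3.11.15, numpy 2.4.6, pandas 2.3.3, scipy 1.17.1 and matplotlib 3.10.9 were used.

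The members and the lists were chosen with earlier results of these data known. All 9 members were named in every comparison. List genes were named where called in the same direction in at least 3 of the 5 genotype comparisons, or among the 3 largest called changes of the 4 lists in a genotype or polyA GV-to-MII comparison at an average log2 CPM of at least 3. For likeness, the 2 genes with the highest Pearson correlation were named.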

Additional observations from a re-analysis of the deposited data

Results flagged for a closer look

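In 5 of the 54 groups of values checked, 1 oocyte stood apart from the rest of its group, where chance gives about 1 in 20 groups. Papola was at 439 CPM in RiboMinus GV cKO oocyte 3 of V1126, with the next at 331. Papolg was at 332 CPM in polyA GV control oocyte 4 of V889, with the next at 272. Pabpc1 was at 12.9 CPM in GV3h control oocyte 3 of V995, with the next at 6.70. Pabpc4 was at 59.7 CPM in polyA MII control egg 2 of V896, with the next at 43.2. Pabpn1l was at 2520 CPM in polyA MII control egg 2 of V836, with the next at 1510.

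The GV-to-MII change differed between genotypes by the edgeR interaction test in polyA libraries for Papola (0.55), Pabpc1 (-1.35), Pabpc1l (0.72) and Cpsf4 (0.77), and in RiboMinus libraries for Pabpc4 (-1.10). It differed between library types in controls for Papola (0.58), Papolg (-0.39), Pabpc1l (-0.85), Pabpc4 (-0.80), Pabpn1 (1.5), Pabpn1l (1.32) and Cpsf4 (-1.11). In the cKO it differed between library types for Papola (0.73), Papolg (0.81), Pabpn1 (1.16) and Cstf2 (1.29). All are log2 differences of 2 changes. Of all genes 14.7% were called in the polyA and 14.8% in the RiboMinus genotype test, and 49.6% in the control and 45.6% in the cKO library-type test. Voom called 0, 1, 7 and 2 of the 9 genes in the same order. Female sums called 0 in the polyA genotype test and 0 in the cKO library-type test, and the others were not fitted that way.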

How the results depend on the processing

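No paired analysis was possible because the groups compared share no female, the labels pair no females and an oocyte number only counts oocytes within a female, so there was no replicate block. The number of the 9 genes called is given below with the share of all genes called under the same setting in brackets. The shares of all genes moved with the settings too. In polyA GV libraries 7 genes became 3 with voom (9.44%), 0 with female sums (0.00555%) and 4 to 8 with 1 female left out (17.7 to 50.3%). At GV3h, leaving out a female gave 6 to 7 (42.5 to 61.1%), and in polyA MII eggs 4 to 7 (18.5 to 36.4%). At RiboMinus GV 5 became 3 with voom (17.8%), 0 with female sums (0.0149%) and 0 to 7 with a female left out (0.631 to 52.7%). At RiboMinus MII leaving out a female or egg gave 3 to 5 (12.6 to 23.0%). From GV to GV3h it gave 0 in controls (0.37 to 2.86%) and 0 to 2 in the cKO (0.228 to 11%). From GV to MII it gave 4 to 7 in control (46.2 to 65.0%) and 5 to 7 in cKO polyA libraries (58.5 to 74.0%). RiboMinus controls gave 1 with all groups in 1 fit (19.4%) and 2 to 4 with leaving out (20.3 to 27.8%). The RiboMinus cKO gave 0 with voom (4.65%), 0 with female sums (0%) and 0 to 4 (1.16 to 25.2%). For stage by genotype in polyA libraries, DESeq2 size factors gave 2 (13.6%), voom 0 (3.53%), female sums 0 (0.0722%) and leaving out 0 to 5 (4.48 to 28.2%). In RiboMinus libraries DESeq2 gave 2 (19.2%), the 50-count filter 2 (20.2%) and leaving out 1 to 4 (7.23 to 20.3%). For library type by stage, leaving out gave 5 to 7 in controls (41.9 to 51.6%). In the cKO library totals gave 2 (46.8%), voom 2 (28.1%), female sums 0 (12.2%) and leaving out 3 to 5 (35.8 to 47.9%).

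Among values called under either setting, 2 turned direction: Cpsf4 in polyA GV libraries without V888 (-0.39; without V857 it was 0.276) and Papolg from GV to MII in the cKO under library totals (-0.42). A further 9 values called under neither scaling changed sign under library totals, all of a size of at most 0.483. Of 63 gene results called, 48 were fitted on female sums and 29 of these lost the threshold. The ratios could not pass with female means, whatever their size. Pabpc1 rests on 13 to 72 reads per control polyA library.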

Other observations

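In control polyA libraries Cpsf4l, Paip2 and Tent5b had the largest called GV-to-MII changes of the 4 pathway lists, each larger than that of any of the 9 genes described. In cKO polyA libraries the largest were Clp1 (-4.67 ± 0.62, adjusted p = 3.45e-08), Cpsf4l (-3.70 ± 0.10, 7.65e-25) and Paip1 (1.92 ± 0.13, 2.51e-15). Cpsf4l, a paralogue of Cpsf4, averaged 1707 CPM in control GV and 62.0 CPM in control MII polyA libraries (log2 -4.79 ± 0.24, adjusted p = 6.98e-12). In control RiboMinus libraries it averaged 649 and 622 CPM, and the change differed between library types (-4.56 ± 0.29, 2.36e-14). In the cKO that difference was -3.35 ± 0.20 (1.98e-17). Cpsf4 itself showed a difference of -1.11 in controls. The control differences between library types rest on 3 RiboMinus MII eggs of 1 female and were not fitted on female sums.

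The partners of poly(A) binding proteins split in the same test, with the same limit of 1 control female at RiboMinus MII. Paip2 fell by 2.36 on the log2 scale in control polyA libraries and rose by 1.49 in control RiboMinus libraries, a difference of -3.68 ± 0.24 (adjusted p = 4.54e-14) in controls and -0.75 ± 0.24 (0.0101) in the cKO. Paip1 gained more in polyA than in RiboMinus libraries, by 2.04 ± 0.15 in controls (5.45e-13) and 2.83 ± 0.32 in the cKO (1.1e-09). Tent5b, a noncanonical poly(A) polymerase, changed by -1.97 ± 0.25 in control polyA libraries (1.09e-06) and differed between library types by -1.52 ± 0.32 in controls (0.000157) and -2.20 ± 0.25 in the cKO (1.49e-09). Over the 4 lists 18 genes were higher and 9 lower of 42 tested in controls, where 49.6% of all genes were called.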
